A study of Mus musculus with 3 samples.

Results

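The mothers' library of nuclei sorted from dissected lateral habenula tissue was set against 2 virgin libraries, within each of 5 deposited clusters of neurons. The aim was to find genes for which mothers stood on the same side of both. The comparison used 592 neuronal nuclei of 603 nuclei in all: 201 from mothers, 187 from virgin females and 204 from virgin males. A gene entered when it was autosomal and had at least 10 UMIs (unique molecular identifiers, each marking 1 captured transcript) over the 3 libraries in at least 4 of clusters 0 to 4, which left 9690 of the 32285 genes in the table. A gene was listed when the mothers' level lay above both virgin libraries, or below both, in at least 4 clusters, with a fold of at least 1.5 against each. By this rule 52 genes were higher in mothers (0.537% of those evaluated) and 31 were lower (0.32%). Each group gave 1 library, so no test between groups was possible, and every value below is a size without a replicate check.

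The lateral habenula (LHb) is a small epithalamic nucleus made up almost wholly of excitatory neurons, known for its role in aversion and negative affect. One of its inputs is the BNST (bed nucleus of the stria terminalis), part of the extended amygdala, whose neurons take part in anxiety and in social and parental behaviour. Motherhood is known to bring changes in hormone levels, neuropeptide signalling and stress responsiveness, which is why receptors, activity-dependent genes and hormone targets are described here as groups.

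The groups were mothers, which the submitters describe as sexually experienced females, virgin females and virgin males, all carrying nuclei labelled with KASH-GFP, a fluorescent protein anchored to the envelope of the nucleus, in BNST LHb neurons. Nuclei were released from dissected LHb tissue, sorted for green fluorescence and loaded in separate lanes of a droplet 3′ assay. Each library pooled 3 mice, and the pool cannot be split by mouse. Strain, age, the time since giving birth and how the fluorescent label reached the neurons are not stated by the sources used here. The mothers differ from the virgin females in sexual experience and from the virgin males also in sex, and the 2 comparisons share the mothers' library.

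Neuronal UMIs totalled 2691639 in the mothers' library, 2718356 in that of virgin females and 2122919 in that of virgin males. Cluster totals ran from 181536 to 873414 UMIs, and the number of mothers' nuclei per cluster was 34 to 47. In 4 of 5 clusters the mothers' median UMIs per nucleus lay between those of the virgin libraries. Summed markers of thalamic neurons stood at 6786 to 10994 CPM (UMIs per 1000000 of the library's cluster total) in clusters 0, 2 and 3 and at 1000.2 to 2309 CPM in clusters 1 and 4. Summed markers of LHb neurons stood at 472 to 1077 CPM in clusters 0, 2 and 3 and at 1047 to 1785 CPM in clusters 1 and 4. The submitters label the neurons as LHb, and the clusters are called here by number. In mothers the LHb markers lay below both virgin libraries in clusters 2 (619 CPM against 709 and 728), 3 (620 against 921 and 1077) and 4 (1322 against 1671 and 1785). They lay above both in cluster 0 (527 against 488 and 472). Thalamic markers in mothers lay above both in clusters 1 (2309 CPM against 1951 and 1995) and 4 (1812 against 1000.2 and 1135), and below both in no cluster. Markers of the medial habenula (MHb) lay above both in clusters 1 (552 CPM against 423 and 420.3), 2 (78.6 against 67.7 and 71.0) and 4 (149 against 131 and 132). They lay below both in cluster 0 (78.3 against 87.0 and 106.9), and 1 of those 9 markers was without a UMI. GABAergic markers summed to at most 178 CPM and astrocyte markers to at most 27.5 CPM in any cluster and library. Summed markers of microglia lay above both virgin libraries in clusters 0, 2, 3 and 4 of the mothers' library (181 to 275 CPM, against 141 to 214 in virgin females and 169.7 to 209.6 in virgin males), 1 of 8 of these markers was without a UMI, and P2ry12 made up 49.3% of the sum. Markers of ependyma or choroid reached 2134 CPM in cluster 1 of virgin males and at most 47.3 CPM elsewhere. Single genes also made up much of the other sums: Chrm3 52.5% of the LHb markers, Nwd2 60.2% of the MHb markers and Ntng1 50.8% of the thalamic markers. The part of these markers in the results below was not tested. Since UMIs were summed, fewer nuclei with a transcript and fewer transcripts per nucleus cannot be told apart in a summed level.

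Folds are cluster-stratified: a single ratio of CPM common to the 5 clusters was estimated from libraries compared within each cluster. Clusters with more UMIs of a gene weigh more in this ratio. With equally weighted cluster means instead, the rule again listed 34 of the 52 higher and 29 of the 31 lower genes. The intervals in brackets are exact 95% intervals for counting error, and they leave out variation between nuclei and mice. Over all 9690 genes the log2 fold of mothers had a median of 0.01 over virgin females and 0.02 over virgin males, with robust SDs of 0.26 and 0.27. The virgin females' library differed from the virgin males' by a robust SD of 0.26. A fold of at least 1.5 against virgin females alone was seen for 378 genes higher in mothers (3.9%) and 239 lower (2.47%), and against virgin males alone for 430 (4.44%) and 260 (2.68%). Without a condition on size, 558 genes lay above both virgin libraries in at least 4 clusters (5.76%) and 385 lay below both (3.97%). The same rule, applied to the other libraries in turn, listed 76 genes for virgin females and 100 for virgin males, against 83 for mothers, so the mothers' library had neither the most nor the fewest. The mothers' list held more higher than lower genes, whereas the lists of virgin females (21 higher, 55 lower) and of virgin males (24 higher, 76 lower) held more lower ones.

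**Figure D1:**
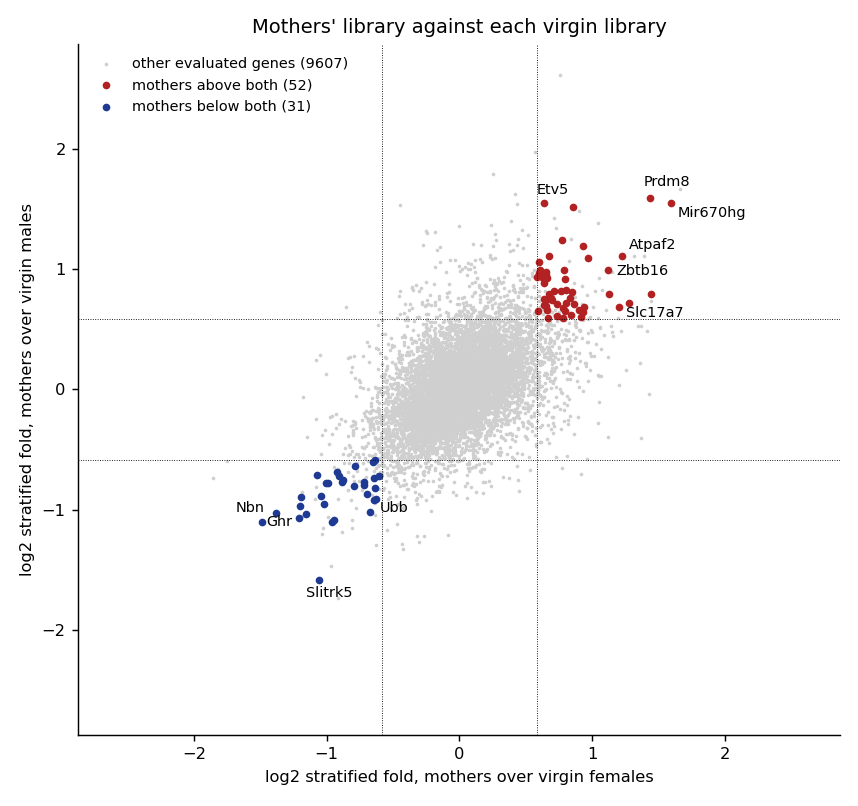
Each point is 1 of 9690 autosomal genes, with the log2 cluster-stratified fold of the mothers' library over virgin females on the horizontal axis and over virgin males on the vertical axis. The 52 genes higher in mothers and the 31 lower ones lie beyond the dotted lines at 1.5-fold, and many grey points beyond both lines missed the condition on 4 clusters.

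Among transcriptional regulators, Prdm8 (chr5:98167198-98188991, GRCm38, plus strand), a PR-domain repressor of neuronal development, was higher in mothers in all 5 clusters. In mothers it stood at 49.7, 85.6, 44.9, 68.3 and 49.5 CPM in clusters 0 to 4. In virgin females the levels were 26.3, 23.6, 15.3, 23 and 20.9 CPM, and in virgin males 14.4, 34.7, 10.7, 24.5 and 11.0 CPM. No cluster of either virgin library reached the lowest cluster of the mothers, 44.9 CPM. The fold was 2.71 [1.99 to 3.72] over virgin females and 3.01 [2.14 to 4.32] over virgin males, while virgin females over virgin males gave 1.1 [0.732 to 1.68]. The 157 UMIs of mothers came from 88 nuclei, against 62 UMIs from 49 nuclei in virgin females and 44 from 38 in virgin males, and the richest nucleus held 11. Prdm8 and the antisense transcript 4930419G24Rik were the only listed genes that met the rule under each of 14 alternative settings. With a cluster left out the rule required 3 of 4 clusters, and with cluster 1 split it required 5 of 6.

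The 250 bases before the start that RefSeq (GRCm38.p6) lists for Prdm8, and those before Slitrk5, the lower gene with the largest fold against virgin males, are shown because these were the only listed genes on their side in all 5 clusters with a fold of at least 2 against each virgin library. Both windows lie inside the GENCODE spans of the genes, so they precede the start of a RefSeq transcript and not the first annotated base of the gene. Capitals mark the only matches of the searched motifs: ATTGG, the CCAAT box read on the opposite strand, at Prdm8 (chr5:98180619-98180868, plus strand), and CCGCCC, the GC box GGGCGG read on the opposite strand, at Slitrk5 (chr14:111675777-111676026, plus strand).
Prdm8: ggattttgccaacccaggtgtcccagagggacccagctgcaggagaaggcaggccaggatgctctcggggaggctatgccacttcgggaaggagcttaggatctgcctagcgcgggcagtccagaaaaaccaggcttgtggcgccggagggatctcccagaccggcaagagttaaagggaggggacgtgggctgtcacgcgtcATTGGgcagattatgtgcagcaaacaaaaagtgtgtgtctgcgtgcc
Slitrk5: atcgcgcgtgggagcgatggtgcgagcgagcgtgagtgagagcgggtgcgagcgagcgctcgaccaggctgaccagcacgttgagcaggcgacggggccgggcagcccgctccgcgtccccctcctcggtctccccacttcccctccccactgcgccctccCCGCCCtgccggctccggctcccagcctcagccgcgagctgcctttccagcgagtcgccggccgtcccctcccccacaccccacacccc
Promoters of 39 higher and 24 lower genes could be matched. On either strand the CCAAT box stood in 35.9% and 50% of them, against 35.7% of 7441 evaluated genes with a promoter, and the GC box in 56.4% and 50%, against 60.3%. The E-box CACGTG was in 15.4% and 12.5%, against 8.71% of all. The TATA box TATAAA was in 5.13% and 0%, against 5.50%. The cAMP response element TGACGTCA was in none of the 39 or 24 and in 3.06% of all. These are matches of letters in a fixed window and not sites of binding.

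Zbtb16 (chr9:48654297-48836222, minus strand), a zinc-finger repressor known as a glucocorticoid-induced gene, also lay above both virgin libraries in 5 clusters. Its mothers' levels were 10.5, 29.3, 32.1, 18 and 17.3 CPM in clusters 0 to 4. Virgin females held 10.3, 18.9, 4.36, 0 and 10.5 CPM, and virgin males 4.79, 17.3, 24.9, 3.50 and 5.51 CPM. The separation was narrow in cluster 0, and the 0 in cluster 3 of virgin females allows up to 8.63 CPM (3 UMIs). The fold was 2.17 [1.35 to 3.57] over virgin females and 1.99 [1.18 to 3.48] over virgin males, from 57, 29 and 21 UMIs. Of 8 evaluated genes on the list of glucocorticoid-responsive genes, Zbtb16 alone was listed. Fkbp5, a cochaperone of the glucocorticoid receptor, had folds of 1.49 [1.06 to 2.11] and 1.13 [0.806 to 1.6], and Sgk1, a kinase induced by glucocorticoids, 1.01 and 0.936.

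Etv5 (chr16:22381309-22439719, minus strand), an ETS-family factor downstream of growth-factor signalling, was above both virgin libraries in clusters 0 to 3. Levels in mothers were 21.1, 15.8, 61.0 and 70.1 CPM there, in virgin females 17.2, 13.0, 19.6 and 48.9 CPM, and in virgin males 6.38, 15.2, 28.4 and 10.5 CPM. The virgin libraries themselves differed, at 1.83 [1.13 to 3.05] for females over males, and the mothers' fold was 1.55 [1.1 to 2.20] over virgin females and 2.92 [1.89 to 4.67] over virgin males. Etv5 was the only one of the 52 higher genes for which the gap between virgin libraries exceeded the mothers' gap to the nearer one. The basic helix-loop-helix factor Usf1 had folds of 1.74 [1.02 to 3.05] and 1.64 [0.946 to 2.94], with cluster 4 at 9.90 CPM in mothers below 31.4 and 16.5 CPM. With each nucleus thinned to 5000 UMIs the Usf1 fold over virgin females was 0.846. The zinc-finger gene Zfp668 had folds of 2.43 and 1.65.

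Mir670hg (chr2:94160636-94264918, minus strand), the noncoding host transcript of miR-670, had the largest fold over virgin females among the listed genes. It stood at 227, 87.8, 59.4, 174 and 47.0 CPM in mothers, at 35.5, 43.6, 32.7, 80.6 and 47.1 CPM in virgin females, and at 41.5, 80.2, 53.3, 26.2 and 55.1 CPM in virgin males. The mothers' excess was thus held by clusters 0 and 3, while clusters 1 and 2 differed little from virgin males and cluster 4 lay below both. The fold was 3.02 [2.44 to 3.77] over virgin females and 2.93 [2.34 to 3.69] over virgin males. Of 343 UMIs in mothers, 32 came from 1 nucleus, and 82 nuclei held at least 1. With the richest nucleus of each library and cluster left out, the side was kept in only 3 clusters although the folds were 3.24 and 3.21. Both mature arms of the microRNA lie within the host gene on the minus strand of chromosome 2, miR-670-5p at 94261358 to 94261379 and miR-670-3p at 94261316 to 94261340 (RefSeq, GRCm38.p6). Their seeds (bases 2 to 8, in capitals) are not shared, and this 3′ assay counted the host transcript, not the mature microRNA.
miR-670-5p: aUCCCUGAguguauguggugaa
miR-670-3p: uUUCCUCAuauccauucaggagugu

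In all, 12 noncoding RNAs were among the higher genes (23.1%, against 9% of evaluated genes), 7 of them annotated as antisense (13.5%, against 4.90%), and 3 of 31 lower genes were noncoding (9.68%). Listed genes were thinly counted, with a median of 127 UMIs over the libraries for higher and 112 for lower genes, against 269 for evaluated genes. The shares among genes of equal count were not tested. The antisense transcript 4930419G24Rik (chr3:33024777-33088607, plus strand) was the most deeply counted member, with 690 UMIs in mothers, against 392 in virgin females and 265 in virgin males. Its levels in clusters 0 to 4 were 116, 318, 384, 273 and 200.5 CPM in mothers, compared with 71.0, 185, 183, 129 and 230.4 CPM in virgin females, and 67.0, 182, 110.1, 142 and 149 CPM in virgin males. Mothers were the highest in clusters 0 to 3 and lay between the virgin libraries in cluster 4. The fold was 1.73 [1.52 to 1.97] over virgin females and 1.99 [1.72 to 2.30] over virgin males, and 165 of the mothers' nuclei held a UMI. Pex5l, the gene it overlaps on the other strand, had folds of 1.1 and 1.21.

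The antisense transcript 4933423P22Rik (chr2:90479236-90488425, plus strand) was above both virgin libraries in 5 clusters, with folds of 1.91 [1.45 to 2.54] and 2.28 [1.70 to 3.10]. In cluster 3 it reached 151 CPM in mothers, against 77.7 in virgin females and 57.7 in virgin males. Ptprj, a receptor tyrosine phosphatase gene on the other strand, had folds of 1.12 and 1.36. For 3200001D21Rik, also in 5 clusters, the folds were 1.73 and 1.88, and for Adck1 on the other strand 1.07 and 1.05. The noncoding 9130019P16Rik had folds of 1.78 and 1.69, with no excess in cluster 0 (63.3 CPM against 59.5 and 73.4), where Chn2 and Wipf3 overlap it. The sources used here do not state whether reads were counted by strand, so reads of an antisense transcript and of its partner cannot be told apart.

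**Figure D2:**
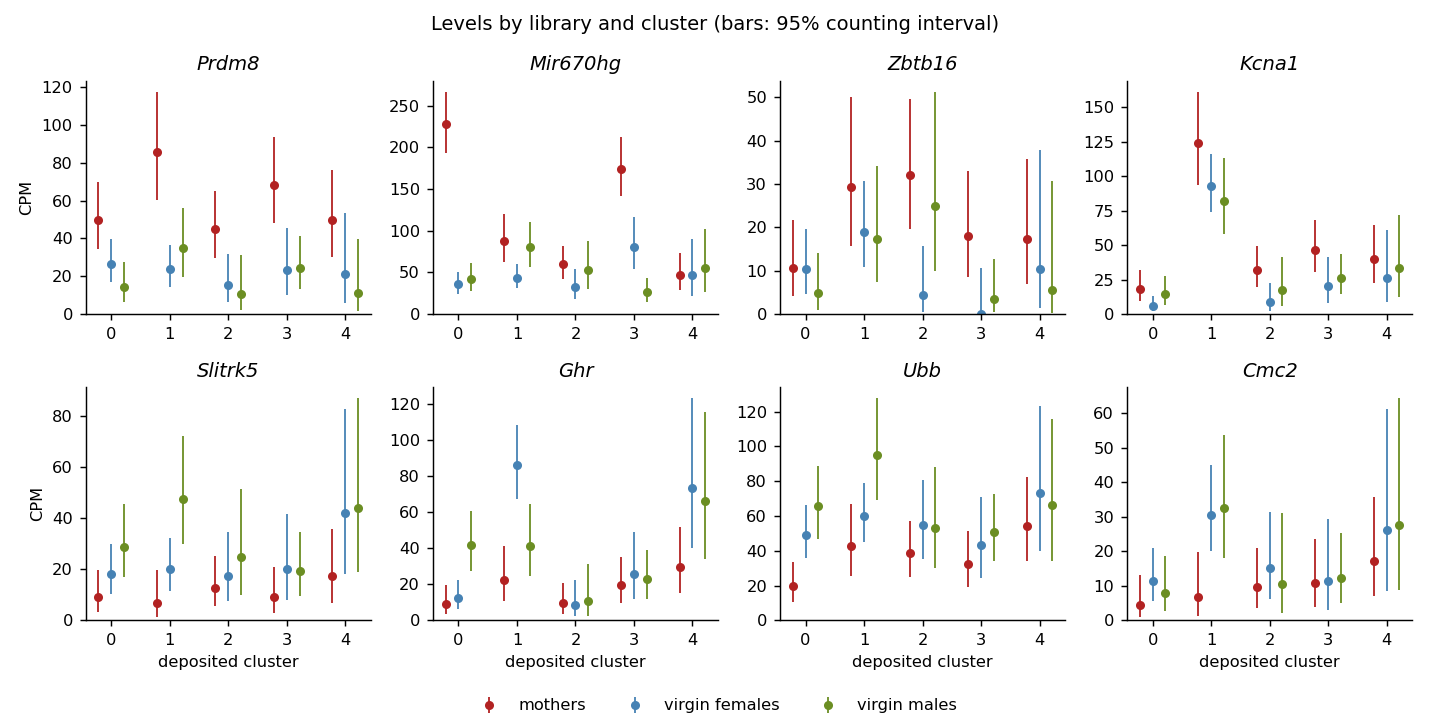
Levels in CPM of 4 higher genes (upper panels) and 4 lower genes (lower panels) by deposited cluster, 1 point per library with its exact 95% counting interval. Prdm8 in mothers lies above both virgin libraries in each cluster, Mir670hg mainly in clusters 0 and 3, and Slitrk5 and Ubb in mothers lie below both in each cluster.

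Among ion channels and transporters, Kcna1 (chr6:126640397-126646384, minus strand), which encodes the Kv1.1 delayed-rectifier potassium channel, was higher in mothers in 5 clusters. It stood at 18.1, 124, 32.1, 46.7 and 39.6 CPM in mothers, at 5.72, 93.1, 8.73, 20.1 and 26.2 CPM in virgin females, and at 14.4, 82.3, 17.8, 26.2 and 33.1 CPM in virgin males. Cluster 1 held the highest level in every library. The fold was 1.67 [1.26 to 2.21] over virgin females and 1.52 [1.13 to 2.07] over virgin males. Slc17a7, which encodes the vesicular glutamate transporter VGLUT1, was above both in clusters 0 to 3, with folds of 2.30 [1.53 to 3.54] and 1.6 [1.11 to 2.35]. In cluster 1 its level was 36.0 CPM in mothers against 1.18 and 6.50, from only 16, 1 and 3 UMIs, with 7 of the 16 in 1 nucleus. In cluster 3 it was 61.1 CPM against 60.4 and 47.2, and cluster 4 held no UMI in any library. Slc17a7 met the rule under 8 of 14 alternative settings, and failed it without the richest nucleus of each library and cluster and without cluster 1. Slc17a7 is also on the list of cortical or hippocampal markers, which in cluster 1 summed to 106 CPM in mothers, against 27.1 in virgin females and 19.5 in virgin males. That sum includes Slc17a7 itself, so it is not a separate measure. Over all neurons, Prox1 made up 81.4% of the summed list. The MHb markers were also highest in mothers in cluster 1, at 552 CPM against 423 and 420.3. The part of either marker list in the Slc17a7 difference was not tested.

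Among the other named higher genes, Crls1, which encodes cardiolipin synthase of the inner mitochondrial membrane, was above both in 5 clusters, at 11.2 to 29.7 CPM in mothers, 5.24 to 11.8 in virgin females and 3.55 to 10.5 in virgin males, with folds of 1.96 [1.17 to 3.34] and 2.13 [1.21 to 3.92]. Bag6, a chaperone that guards newly made membrane proteins, was above both in 5 clusters, with folds of 2.18 [1.38 to 3.51] and 1.73 [1.09 to 2.78]. In cluster 4 the difference from virgin males was small, 22.3 CPM against 22. Hat1, a histone acetyltransferase acting on newly made histones, was above both in 5 clusters, with folds of 1.80 [1.12 to 2.94] and 1.75 [1.05 to 2.99]. Atpaf2, an assembly factor of the mitochondrial ATP synthase, had folds of 2.34 and 2.16, but 64 of its 114 UMIs in mothers were in cluster 0, 37 of them in 1 nucleus, and without cluster 0 the fold over virgin females was 1.26.

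The remaining named higher genes were Nr2c2ap (1.81 over virgin females and 2.85 over virgin males), Shcbp1l (2.72 and 1.74) and Wrnip1, a helicase-interacting ATPase (1.71 and 2.36). Of the other higher genes, C9orf72, known for its repeat expansion in motor neuron disease, was above both in 5 clusters, with folds of 1.57 and 1.93. The proteasome subunit gene Psmd2 had folds of 1.72 and 1.6 and the cation channel gene Trpm4 1.55 and 1.85. These 3 were chosen after their values were seen. The mothers' counts of the 52 higher genes ran from 35 to 690 UMIs.

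Among the lower genes, Slitrk5 (chr14:111675097-111683141, plus strand), a transmembrane protein of neurite growth and synapse formation, was below both virgin libraries in 5 clusters. Mothers held 9.04, 6.76, 12.8, 8.98 and 17.3 CPM in clusters 0 to 4. Virgin females held 18.3, 20, 17.5, 20.1 and 41.9 CPM, and virgin males 28.7, 47.7, 24.9, 19.2 and 44.1 CPM. Mothers were the lowest library in each cluster, although their counts per cluster were small, 3 to 8 UMIs. The fold was 0.48 [0.292 to 0.777] over virgin females and 0.333 [0.206 to 0.527] over virgin males. The virgin libraries also differed from each other, 0.635 [0.434 to 0.926] for females over males.

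Ghr (chr15:3317760-3583492, minus strand), the growth hormone receptor, was the only listed gene of 11 evaluated hormone receptors. In mothers it stood at 9.04, 22.5, 9.63, 19.8 and 29.7 CPM, in virgin females at 12.6, 86.1, 8.73, 25.9 and 73.3 CPM, and in virgin males at 41.5, 41.2, 10.7, 22.7 and 66.1 CPM. Mothers were the lowest except in cluster 2, where all 3 libraries were close. The fold was 0.45 [0.307 to 0.651] over virgin females and 0.487 [0.326 to 0.720] over virgin males, and virgin females over virgin males gave 1.09 [0.803 to 1.5]. Thrb, a thyroid hormone receptor, was below both in 5 clusters with smaller folds, 0.821 [0.733 to 0.920] and 0.760 [0.676 to 0.854]. Prlr, the prolactin receptor, had folds of 0.773 [0.583 to 1.02] and 1.06 [0.768 to 1.47], and Esr1, the oestrogen receptor, was evaluated in only 3 clusters and had 40, 44 and 42 UMIs.

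Ubb (chr11:62551171-62553213, plus strand), a polyubiquitin gene, was the lower gene with most UMIs, 96 in mothers, against 148 in virgin females and 141 in virgin males. Its levels were 19.6, 42.8, 38.5, 32.3 and 54.5 CPM in mothers, compared with 49.2, 60.1, 54.6, 43.2 and 73.3 CPM in virgin females, and 65.4, 95.3, 53.3, 50.7 and 66.1 CPM in virgin males. Mothers were the lowest library in each of the 5 clusters. The fold was 0.639 [0.485 to 0.839] over virgin females and 0.529 [0.402 to 0.693] over virgin males. Ubiquitin coding sequences are near-identical between genes, so reads could be split among copies.

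Among the other named lower genes, Nbn, a subunit of the complex that senses double-strand breaks, had folds of 0.357 [0.193 to 0.635] and 0.467 [0.241 to 0.880], with 18, 48 and 29 UMIs. Etaa1, an activator of the ATR kinase, was below both in 5 clusters (0.513 and 0.467), as was Magoh, a core protein of the exon junction complex (0.435 and 0.512). Cmc2, a factor of cytochrome c oxidase assembly, was below both in 5 clusters (0.485 and 0.54), at 4.52 to 17.3 CPM in mothers, 11.4 to 30.7 in virgin females and 7.98 to 32.5 in virgin males. Coq10b, which binds coenzyme Q, had folds of 0.545 and 0.593, and Pccb, a subunit of propionyl-CoA carboxylase, 0.627 and 0.495. Pard6a, a cell polarity adaptor, had folds of 0.432 and 0.476 from only 14 UMIs in mothers.

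Nenf, a secreted neurotrophic factor, had folds of 0.528 and 0.620, and in cluster 3 a level of 1.80 CPM in mothers against 34.5 and 21. That level of mothers is below the 5.39 CPM that 3 UMIs make there, and Nenf did not meet the rule without cluster 3. The last named lower genes were Rtf2 (0.505 and 0.584), Dgcr6 (0.475 and 0.610), Cc2d1a (0.609 and 0.578) and the noncoding 5330439K02Rik (0.606 and 0.587). Of the unnamed lower genes, Kdm6b, a histone demethylase, had folds of 0.579 [0.393 to 0.845] and 0.645 [0.430 to 0.961], and it was picked after its values were seen. Counts in mothers ran from 14 to 96 UMIs over the 31 lower genes.

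**Figure D3:**
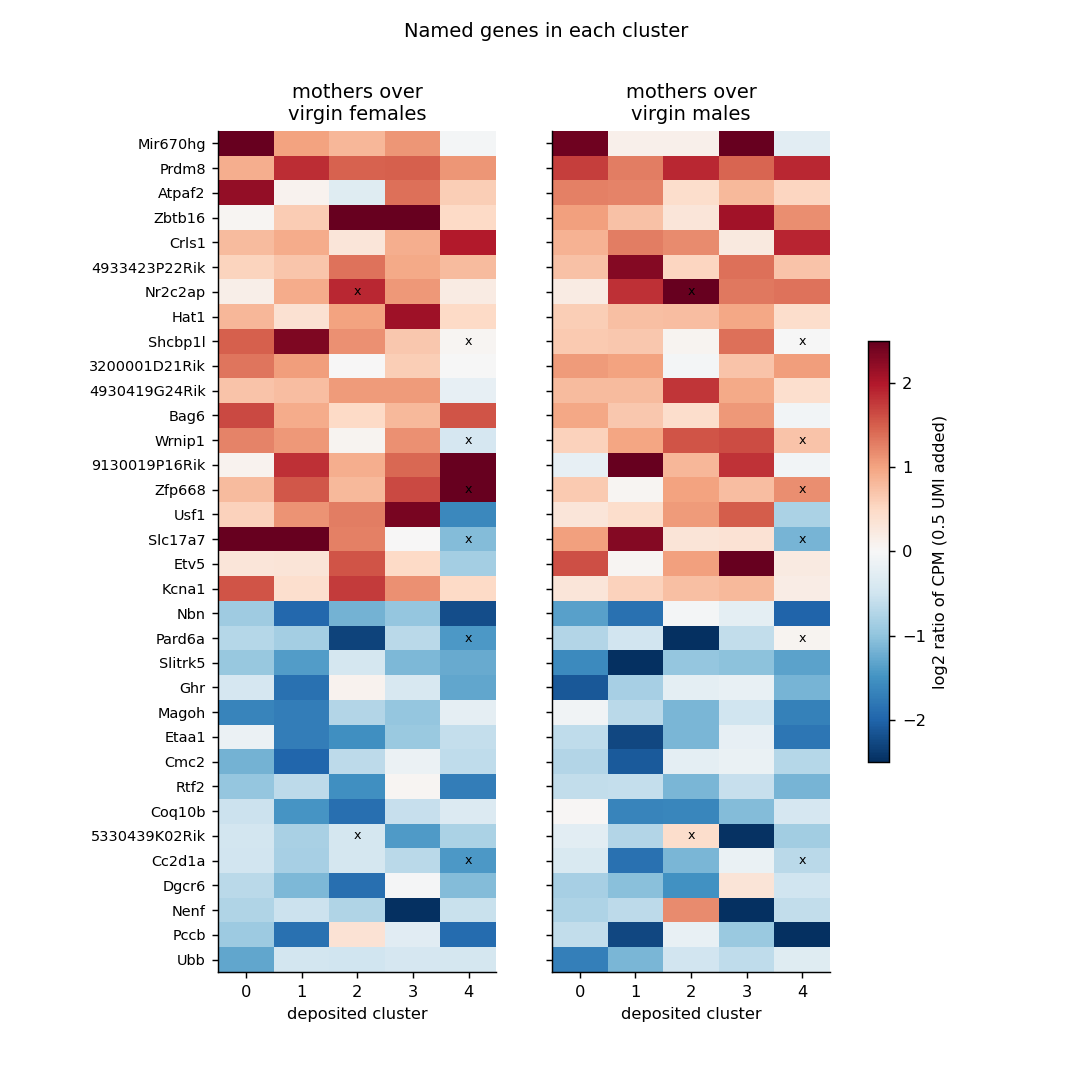
Log2 ratio of CPM (0.5 UMI added to each sum) of mothers over virgin females (left) and over virgin males (right) for the 34 named members by deposited cluster, with a cross where a gene had under 10 UMIs over the 3 libraries. Higher genes are in the upper part and lower genes in the lower part, and squares of the opposite colour mark the clusters where a gene did not follow its group.

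The clusters did not contribute evenly. Cluster 4, which held the fewest UMIs, was the cluster off the listed side for 23 of 52 higher genes, of which 10 could not be evaluated there and 6 lay on the other side of both virgin libraries. For the lower genes cluster 2 was off side most often, for 11 of 31. Of the higher genes 14 lay above both virgin libraries in 5 clusters and 38 in 4, and of the lower genes 5 in 5 clusters and 26 in 4. Both counting intervals left out a fold of 1 for 33 higher and 18 lower genes. These counts follow in part from the rule and are given as a description.

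Members just inside the limit of 1.5-fold were AI854703 (1.5 and 1.90), Fam57a (1.51 and 1.57) and Gas2l1 (1.72 and 1.51). Just outside it were St3gal6 (1.54 and 1.49), Exosc1 (1.49 and 1.51) and H2-T24 (1.83 and 1.49). For the lower genes Trim8 lay inside (0.643 and 0.666) and Tfeb (0.667 and 0.612) outside. The limit therefore separates genes of nearly the same size. The lists spanned 17 and 15 chromosomes, and the median gene span was 19.0 kb for higher and 18.6 kb for lower genes, against 32.5 kb for all evaluated genes.

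A single nucleus could set a summed level. With the richest nucleus of each library and cluster left out, 45 of 52 higher and 21 of 31 lower genes kept their side in at least 4 clusters. Those that did not were Mir670hg, Hunk, Gm45235, Pdcd2l, Qars, Xrcc1 and Tdp1 among higher genes, and Yif1b, Pdia4, Traip, Fbxo46, Pced1a, Otud3, Eif1a, Zmat5, Gm48893 and B3gntl1 among lower genes. The Golgi gene Golga3 had folds of 3.36 and 2.76, but 155 of its 180 UMIs in cluster 1 of mothers came from 1 nucleus. It was above both in only 3 clusters, was not listed, and had folds of 1.251 and 1.18 without the richest nuclei. Ube2cbp, likewise not listed, had a fold of 0.297 over virgin females, where 110 of 140 UMIs in cluster 1 came from 1 nucleus, and of 0.661 over virgin males.

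Some genes with more UMIs and smaller folds lay on the same side of both virgin libraries in every cluster. Some of the margins were narrow. Grin2a in cluster 2 held 1417 CPM in mothers, barely above the 1414 CPM of virgin males. Thrb in cluster 0 held 346.4 CPM in mothers, barely below the 346.9 CPM of virgin females. Irrespective of fold, 60 genes lay above both virgin libraries in all 5 clusters (0.619% of those evaluated) and 48 lay below both (0.495%). Of these, 9 higher and 19 lower genes had at least 300 UMIs in each library, a limit chosen after the values were seen. For 7 and 15 of them both counting intervals left out 1. The genes were picked by their side in the same UMIs, so such intervals follow in part from the choice and are given as a description. Of 9690 evaluated genes, 1175 reached that count. None of the 28 well-counted genes reached 1.5-fold against both virgin libraries. Counts over all 5 clusters are given for mothers only, so whether they exceed those of a virgin library was not tested.

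Gabrg3 (chromosome 7), a gamma subunit of the GABA-A receptor, was the well-counted lower gene with the lowest pair of folds. It stood at 452, 408, 212, 710 and 1196 CPM in mothers, at 550, 678, 423, 906 and 1634 CPM in virgin females, and at 567, 784, 352, 1133 and 1272 CPM in virgin males. Mothers were the lowest library in each cluster, and came closest to virgin males in cluster 4. The fold was 0.708 [0.659 to 0.760] over virgin females and 0.696 [0.648 to 0.747] over virgin males, from 1491, 1876 and 1695 UMIs, and virgin females stood at 0.953 of virgin males. Without the richest nuclei the folds were 0.701 and 0.708, again in 5 clusters.

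Chgb, which encodes the secretory-granule protein secretogranin-1, stood at 133, 167, 140, 93.4 and 129 CPM in mothers, at 206, 189, 229, 129 and 178 CPM in virgin females, and at 164, 178, 238, 149 and 154 CPM in virgin males. Its folds were 0.703 [0.610 to 0.810] and 0.746 [0.641 to 0.868]. Other well-counted lower genes with both intervals below 1 were the vesicle protein gene Syt4 (0.791 and 0.747), the receptor phosphatase gene Ptprt (0.736 and 0.740), the synaptic adhesion gene Lrfn5 (0.863 and 0.859) and the scaffold gene Tanc2 (0.869 and 0.871). The cytoskeletal genes Map1b (0.801 and 0.820) and Tln2 (0.848 and 0.810) and the membrane proteins Gpm6a (0.854 and 0.820) and Rtn4 (0.849 and 0.835), and Csrnp3 (0.839 and 0.832), were lower by similar folds.

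Rmst, a long noncoding RNA linked to neuronal differentiation, was lower by differing amounts across clusters. Mothers held 1054, 552, 154, 154 and 1797 CPM, virgin females 1083, 957, 231, 230.2 and 2063 CPM, and virgin males 1266, 1111, 231, 439 and 2137 CPM. The fold was 0.814 [0.763 to 0.867] over virgin females and 0.699 [0.656 to 0.746] over virgin males, and virgin females stood at 0.855 of virgin males. The transcriptional cofactor gene Ldb2 had folds of 0.802 and 0.658, and the proton pump gene Atp6v0c 0.685 and 0.858. For Atp6v0c virgin females stood at 1.27 of virgin males.

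Gsdme, a gasdermin pore-forming protein, had the highest pair of folds among the well-counted higher genes, 1.44 [1.28 to 1.62] and 1.48 [1.30 to 1.69]. It stood at 328, 176, 331, 251 and 106 CPM in mothers, at 247, 140.3, 210, 124 and 94.3 CPM in virgin females, and at 246, 162, 139, 166 and 60.6 CPM in virgin males. The common fold of virgin females over virgin males was 1.00, although virgin females were higher in clusters 2 and 4 and lower in cluster 3.

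Kcnma1, the large-conductance calcium-activated potassium channel gene, stood at 1429, 2545, 1950, 2032 and 933 CPM in mothers, against 1381, 2060, 1886, 1942 and 822 CPM in virgin females. Virgin males held 1207, 1761, 1726, 1329 and 826 CPM. The differences from virgin females were small, with folds of 1.1 [1.05 to 1.15] over virgin females and 1.32 [1.26 to 1.38] over virgin males. Virgin females stood at 1.19 of virgin males, a wider gap than that between mothers and virgin females. Scn9a, a voltage-gated sodium channel gene, had folds of 1.31 and 1.13, and Grin2a, an NMDA receptor subunit gene, 1.09 and 1.18. For these genes, too, the gap between the virgin libraries exceeded the smaller of the mothers' folds, with females over males at 0.858 for Scn9a and 1.1 for Grin2a. The RNA helicase gene Ddx17 (1.24 and 1.30) and the signalling adaptor gene Shc3 (1.16 and 1.19) also had both intervals above 1.

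**Figure D4:**
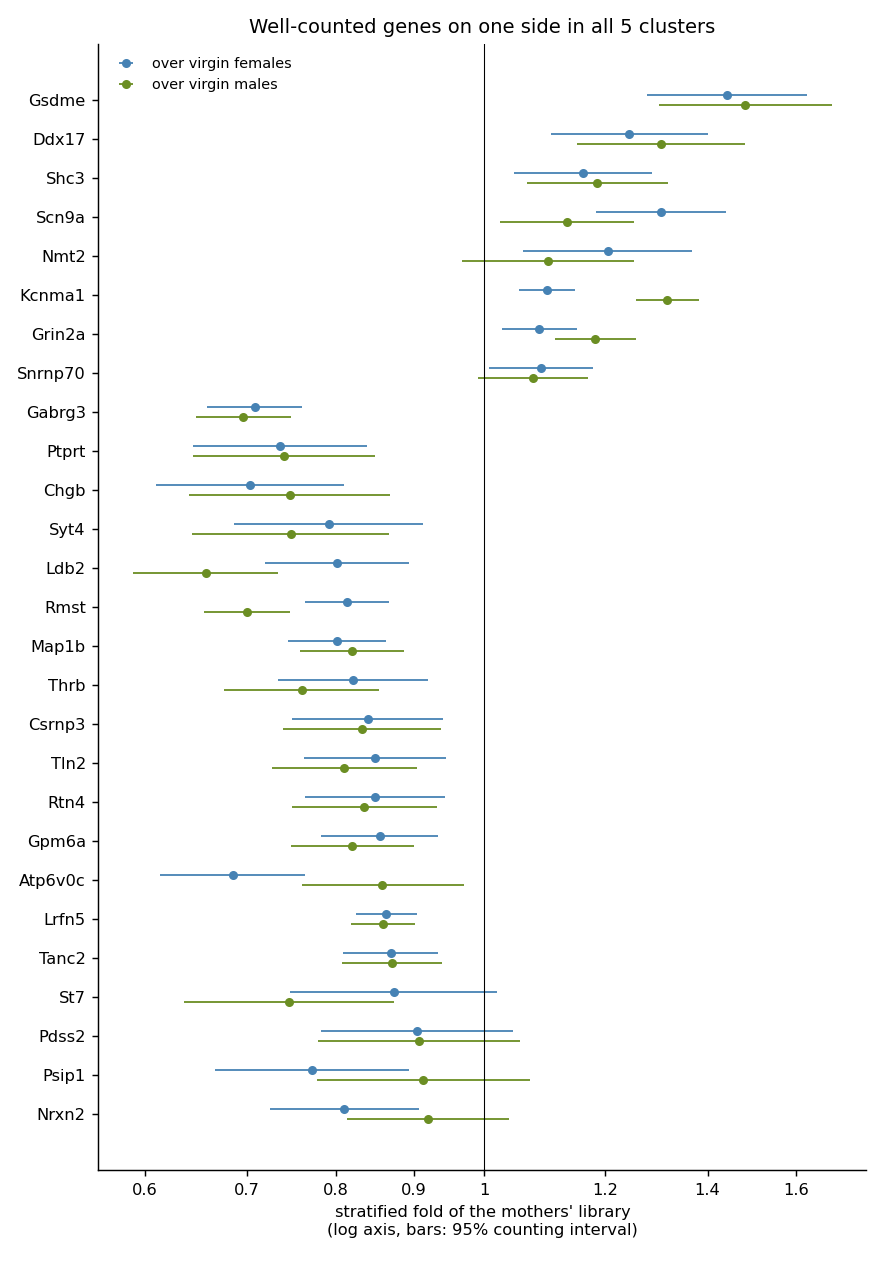
Cluster-stratified folds of the mothers' library over virgin females and over virgin males, with exact 95% counting intervals on a log axis, for 27 of the 28 genes with at least 300 UMIs in each library that lay on one side of both virgin libraries in 5 clusters. Gabrg3 lies at 0.708 and 0.696 and Gsdme at 1.44 and 1.48.

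Of 26 lists of related genes, 398 of 586 genes were evaluated, and 6 were listed as higher and 1 as lower (1.76% in all, against 0.857% of all evaluated genes). The lists were chosen with earlier results of these data known, so the 2 shares are not independent of that choice. They were Prdm8, Mir670hg, Zbtb16, Etv5, Kcna1, Slc17a7 and Ghr, each from a different list. In at least 4 clusters, 23 list genes (5.78%) lay above both virgin libraries and 23 (5.78%) below, against 5.76% and 3.97% of all evaluated genes. Summed levels lay below both virgin libraries in at least 4 clusters for 3 lists and above both for 1, and for the remaining 22 in neither. Summed folds ran from 0.782 to 1.07 over virgin females and from 0.828 to 1.17 over virgin males.

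GABA and glycine receptors summed to a lower level in mothers in all 5 clusters. The sums in mothers were 5548, 3307, 5538, 5748 and 4691 CPM, in virgin females 5823, 3520.4, 5929, 6100 and 5488 CPM, and in virgin males 6125, 3328, 5740.0, 6378 and 5079 CPM. The differences were small in each cluster, and in cluster 1 the gap to virgin males was 3307 against 3328 CPM. The fold of the sum was 0.934 [0.912 to 0.957] over virgin females and 0.927 [0.904 to 0.951] over virgin males. Of 15 evaluated genes, 10 (66.7%) had folds below 1 against both libraries and 2 (13.3%) above 1 against both, where all evaluated genes gave 31.9% and 35.7%, with a median log2 fold of -0.16 and -0.12. Gabrg3 was among those 10, whereas Gabra4 stood at 1.1 and 1.13.

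Heat shock proteins and cochaperones summed to a lower level in mothers in 4 clusters and to a slightly higher one in cluster 2 (1366 CPM against 1349 and 1357), with folds of 0.856 [0.815 to 0.898] and 0.899 [0.853 to 0.946]. Of 14 evaluated genes, 9 (64.3%) were below 1 against both libraries and 3 (21.4%) above, where all evaluated genes gave 31.9% and 35.7%. Hsp90aa1, a cytosolic chaperone, had folds of 0.741 [0.631 to 0.870] and 0.683 [0.577 to 0.807], and its paralogue Hsp90ab1 0.763 and 0.801. Dnaja1 was below both in 5 clusters (0.852 and 0.828), while Hspa4l lay above both in 4 (1.2 and 1.2). Metabotropic glutamate receptors summed to 0.923 [0.9 to 0.946] and 0.919 [0.896 to 0.943] and were below both in 4 clusters, with Grm7 making up 48.9% of the sum. Cytosolic ribosomal proteins were above both in 4 clusters and below both in 1, with sums at 0.995 and 0.991, so that the sides of the clusters and the fold of the sum differ in direction.

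Immediate early genes, which are transcribed within minutes of neuronal activity, had the lowest summed fold over virgin females, 0.782 [0.710 to 0.860], and 0.835 [0.755 to 0.924] over virgin males. The sum was 401, 288, 212, 350.3 and 183 CPM in mothers, compared with 553, 251, 395, 368 and 251 CPM in virgin females, and 496, 297, 401, 324 and 242 CPM in virgin males. Mothers were thus below both in clusters 0, 2 and 4 and between the virgin libraries in clusters 1 and 3. Of 26 listed genes only 9 were evaluated and none was a member. Of these 9, 4 (44.4%) had folds below 1 against both libraries and 1 (11.1%) above, where all evaluated genes gave 31.9% and 35.7%. Of 19 listed genes with at least 20 UMIs over the libraries, 12 had a lower CPM in mothers than in both virgin libraries and 2 a higher one. All 13464 autosomal genes with that count gave 32.5% and 34.6%. With the same limit, 7 of 16 GABA and glycine receptors were lower in mothers than in both and 4 higher. For heat shock proteins and cochaperones, 9 of 15 were lower and 4 higher. These counts compare CPM and not the cluster-stratified fold. Without the richest nucleus of each gene in each library and cluster the sum of immediate early genes stood at 0.766 of virgin females and 0.817 of virgin males.

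Fos, the AP-1 subunit used as an activity marker, had 15 UMIs in mothers, against 50 in virgin females and 33 in virgin males, and Fosb 2, 20 and 16. Npas4, a neuron-specific activity-dependent factor, had 15, 28 and 34 UMIs, and Nr4a3, an orphan nuclear receptor, 25, 64 and 37. Both were below both virgin libraries in each of the 3 clusters where they could be evaluated. Other genes of the list did not follow: Bdnf, the neurotrophin, had folds of 1.29 [1.00 to 1.67] and 2.05 [1.49 to 2.83], and Homer1, a synaptic scaffold gene, 1.05 and 0.969. When and how the brains of each group were collected beyond the shared protocol is not stated by the sources used here, and its part in these levels cannot be told apart from the group.

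**Figure D5:**
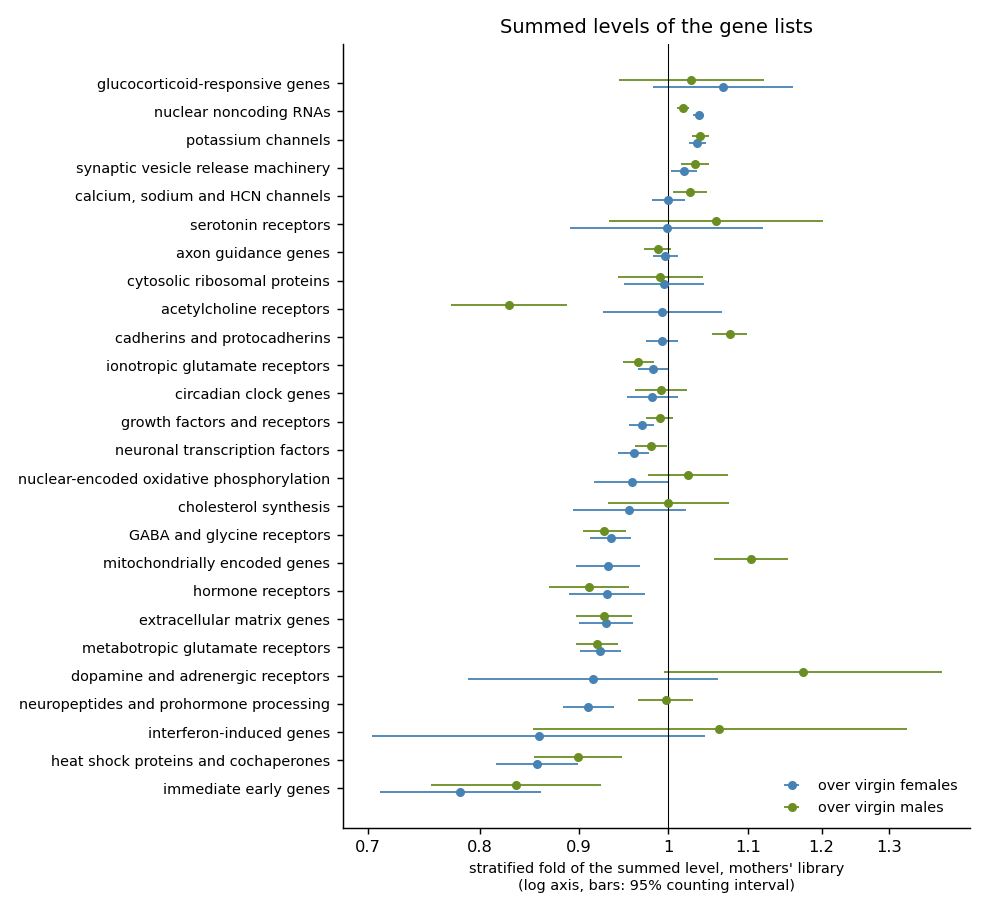
Cluster-stratified fold of the summed level of each gene list in the mothers' library over virgin females and over virgin males, with exact 95% counting intervals on a log axis. Immediate early genes and heat shock proteins lie lowest over virgin females (0.782 and 0.856), and GABA and glycine receptors lie below 1 against both virgin libraries.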

How the data were processed

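Nuclei of 3 libraries, each a pool of 3 mice, were counted with a 10x Chromium 3′ assay. The authors deposited unnormalised UMI counts per gene and nucleus, and a metadata table with group, cell class, cluster number and the percent of mitochondrial UMIs. The submitters' processing notes name Cell Ranger 5.0.1 and the build GRCm38 (mm10). Intron counting, strand, filters on nuclei and doublet treatment are settings not given in the sources used here, and intron counting changes the UMIs that long genes receive and so their weight in a summed level.

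Tables were joined by total UMIs and genes with a UMI, a pair unique to each of 603 nuclei, and 0 barcodes were shared between libraries. The deposited percent of mitochondrial UMIs was reproduced by the join with a largest difference of 0. Chromosomes came from GENCODE M21 and RefSeq for 31820 of 32285 genes. UMIs were summed per library and deposited cluster and scaled to CPM of all UMIs there, with X-linked, Y-linked, mitochondrial and unplaced genes (3.14% of UMIs) left out of the listing. Folds are conditional maximum likelihood estimates of a ratio common to the clusters, with exact conditional 95% intervals, and levels carry exact Poisson intervals. UMIs are treated as independent, so intervals cover counting error only. Where a library held 0 UMIs, 3 UMIs served as its upper limit. No clustering and no doublet caller were run, and an alternative dropped the 5% of nuclei richest in UMIs per library.

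Named genes were the first 15 higher and 15 lower members by the smaller absolute log2 fold that kept their side without the richest nuclei, members on a gene list, and Mir670hg, Prdm8, Golga3 and Ube2cbp. The members, the 26 gene lists, the 13 marker classes and the motifs were chosen with earlier results of these data known. Computation was checked on simulated data. Python 3.11.15, numpy 2.4.6, scipy 1.17.1, pandas 2.3.3 and matplotlib 3.10.9 were used. Results for a few genes are not reported here.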

Additional observations from a re-analysis of the deposited data

How the results depend on the processing

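No paired analysis was possible because each group gave 1 library and no test was made. The counts of listed genes depend on the thresholds. The higher and lower genes numbered 87 and 61 when 3 clusters were required and 14 and 5 when all 5 were. They numbered 22 and 6 with at least 20 UMIs per gene and cluster, 233 and 85 with 1 UMI, 217 and 141 with a log2 fold of at least 0.32, and 3 and 5 at 2-fold. With cluster 1 split by the submitters' second subtype scheme they numbered 29 and 18. With cluster 0, 1, 2, 3 or 4 left out and 3 of the remaining 4 required, the higher genes numbered 143, 103, 90, 81 and 131, and the lower genes 75, 69, 93, 79 and 98, the condition on clusters being looser. Under the other alternatives the counts were 42 to 58 and 21 to 39, within 1.5 times those reported, but the genes differed: the reported genes found again were 33 of 52 and 13 of 31 without the richest nuclei, and 30 and 18 without the 5% of nuclei with most UMIs. With each nucleus thinned to 5000 UMIs, only 17 higher and 7 lower genes could still be evaluated, and 6 and 1 met the rule. Including the non-neuronal nuclei, an alternative chosen after seeing the data, gave 50 and 39. Of 1008 folds of 36 named genes over these settings, 979 moved by less than their counting interval, 28 moved by more and 1 changed direction: Usf1 over virgin females, thinned, at 0.846. Depth limits the lower genes most, since mothers held 14 to 96 UMIs of each, and no setting replaces a second library.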
